A study of Rattus norvegicus with 10 samples.

Results

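The 10 genes followed here belong to the mitogen-activated protein kinase (MAPK) cascades or act on them: the kinases Map4k1, Map2k6, Mapk8 and Mapk14, the phosphatases Dusp1, Dusp6, Dusp8 and Ptprr, the small GTPase Rap1b and the calcium channel subunit Cacna1e. They were chosen by gene name, and 6 of them, Map4k1, Map2k6, Ptprr, Dusp8, Rap1b and Cacna1e, had been selected on their measured difference between sulfur mustard and control livers in these same arrays. That selection asked for a t-test p under 0.05 and a difference of at least 1.5-fold. The study also lists these 6 among the MAPK genes whose change by SM was abolished or attenuated by MSTF. It drew that list from the genes it no longer counted as differentially expressed with MSTF. For those 6, every difference between groups is therefore given as a description. No p-value is printed for them, and where they passed the threshold for a call this is counted but supports nothing, since all 3 comparisons share arrays with that selection. Mapk14 and Dusp1 were not selected on it and carry the test. Through the accession of each probe, 8 of the 10 genes were found on the array among 13973 named genes, with 14 probes between them. No probe was matched to Mapk8 or Dusp6, which were not analysed here. Of the 14 probes, 11 were tested, and the other 3, 2 for Cacna1e and 1 for Ptprr, were not well above background on any array.

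The series measured RNA in the livers of 10 male Sprague Dawley rats, 1 one-colour Agilent array per rat, 24 h after dosing. Sulfur mustard (SM) is a bifunctional alkylating agent, and MSTF is a mixture of the salvianolic acids of Salvia miltiorrhiza with the total flavonoids of Anemarrhena asphodeloides. The 3 control rats received the solvent, propylene glycol. The 4 SM rats received SM under the skin at 3.5 mg/kg, or 0.7 of the median lethal dose, and the 3 SM+MSTF rats had MSTF at 120 mg/kg put into the stomach 1 h after an SM dose of that size. The question was how SM changed expression in liver and how the mixture given after it altered that. No group received MSTF alone, so values of SM+MSTF belong to both agents together, and the age of the rats is not given in the sources used here. Of the 3 slides, the first carried all controls together with SM+MSTF 3, the next all SM arrays, and the last SM+MSTF 1 and 2. SM and its slide cannot be told apart.

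MAPK cascades pass a signal from a kinase at the top, a MAP4 or MAP3 kinase, to a MAP2 kinase and on to a MAP kinase, which phosphorylates transcription factors and other kinases. The ERK branch follows growth factors through the Ras GTPases, whereas the JNK and p38 branches follow stress, DNA damage and cytokines, and in liver all of them take part in regeneration and injury. Dual specificity phosphatases and the tyrosine phosphatase PTPRR switch the MAP kinases off again, and several of their genes are themselves induced by the cascade.

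Levels are given as log2 of the quantile normalized array signal. A probe was called changed at a Benjamini-Hochberg adjusted p under 0.05 in limma and a difference of at least 1.5-fold. Between 51.9% and 61.4% of the probes of an array were well above background. Of the 9 hepatocyte markers, all were above background on every array, and their summed linear signal was 1120000 to 1152000 in controls, 1021000 to 1129000 in SM and 910000 to 1109000 in SM+MSTF, so the label liver held. In bulk liver, fewer cells of a type and less RNA per cell cannot be told apart. Over the marker lists reported here, the called genes were the natural killer cell gene Klrd1, lower in SM than in control and higher in SM+MSTF than in SM, and the neutrophil gene Mpo, higher in SM than in control and lower in SM+MSTF than in SM. Mpo was above background in 2 of 3 controls, 4 of 4 SM arrays and 1 of 3 SM+MSTF arrays. It entered the test only through SM, where it was high, so its calls are a description. Klrd1, above background in 2 of 4 SM arrays, entered only through control and SM+MSTF, where it was high, so its calls are a description too.

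Among the 8 measured members, the SM livers held more Cacna1e, Ptprr and Map2k6 signal than the control livers and less Dusp8, Rap1b and Map4k1 signal, each by 1.51-fold to 1.76-fold between group means of the lead probes. For Rap1b this holds at 1 of its 2 probes only, since the other differed by 0.03 ± 0.09 (SE) from control. Mapk14 and Dusp1 did not pass the test in any comparison. In the livers given SM and then MSTF, Map4k1, Ptprr and Cacna1e lay within 0.02 of their control means on the log2 scale. Dusp8 was at -0.59 from control, and Rap1b, at its lead probe, lay between the other groups. Map2k6 was at -0.39 from control, or -0.01 without SM+MSTF 3.

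**Figure D1:**
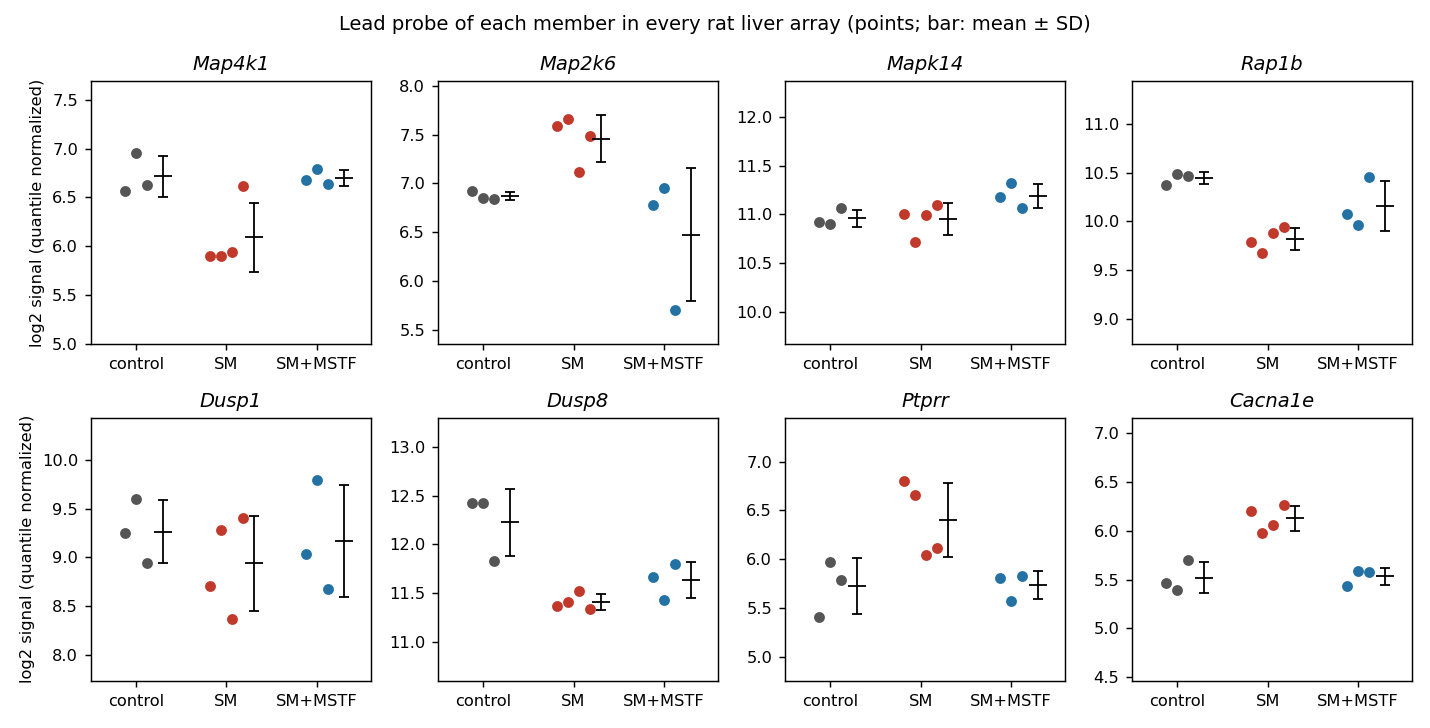
Log2 signal of the lead probe of each measured member (vertical axis, quantile normalized, every panel spanning the same range) in control (grey), SM (red) and SM+MSTF (blue) livers. Each point is 1 rat and the black bar is the group mean ± SD. The 4 SM points of Cacna1e, between 5.98 and 6.26, sit above every control and SM+MSTF point, and the 4 SM points of Dusp8, between 11.33 and 11.52, sit below every control point.

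Counted over lead probes, 3 of the 8 members were called in SM against control, where 2.41% of the 22991 tested probes were called. Cacna1e was called higher, against 0.974% of all probes, and Dusp8 and Rap1b lower, against 1.43%. The groups did not overlap for 5 members, Map2k6, Ptprr, Dusp8, Rap1b and Cacna1e, against 18.0% of all probes. Since 6 of the 8 had been selected on this contrast, nothing is read from these counts. The smallest of the 6 differences was that of Map2k6, at 1.51-fold, and the larger of the differences of the 2 members that were not selected was that of Dusp1, at 1.25-fold. Since the selection asked for at least 1.5-fold, the 6 lay above that by construction, and nothing is read from this order.

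In SM+MSTF against control, 0 of the 8 members were called by limma, as were 0% of all probes. Of the 8, 1 had an unadjusted limma p under 0.05, beside 2193 of the 22991 tested probes. The methods' t-test with the same fold minimum also picked 0 before adjustment, beside 168 of all probes. The groups did not overlap for Mapk14 and Dusp8, against 15.4% of all probes. In SM+MSTF against SM, 1 member, Cacna1e, was called, lower, where 1.26% of all probes were called, 0.322% higher and 0.939% lower. The groups did not overlap there for 5 members, Map4k1, Map2k6, Ptprr, Rap1b and Cacna1e, against 14.7% of all probes. These comparisons share their control or SM arrays with the first one.

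The median difference over the 8 members was -0.17 in SM against control, -0.06 in SM+MSTF against control and 0.23 in SM+MSTF against SM on the log2 scale, beside 0.03, 0.00 and -0.02 over all tested probes. These medians join members that lay on opposite sides of 0, since 3 of the 8 differences were above 0 in SM against control and 5 in SM+MSTF against SM. The count of 3 called members in SM against control dropped to 0 without control 1, control 2, SM 1 or SM 3, and to 1 without SM 2 or SM 4. The 1 call in SM+MSTF against SM was lost without control 1, control 2, SM 1, SM 3 or any of the 3 SM+MSTF arrays.

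**Figure D2:**
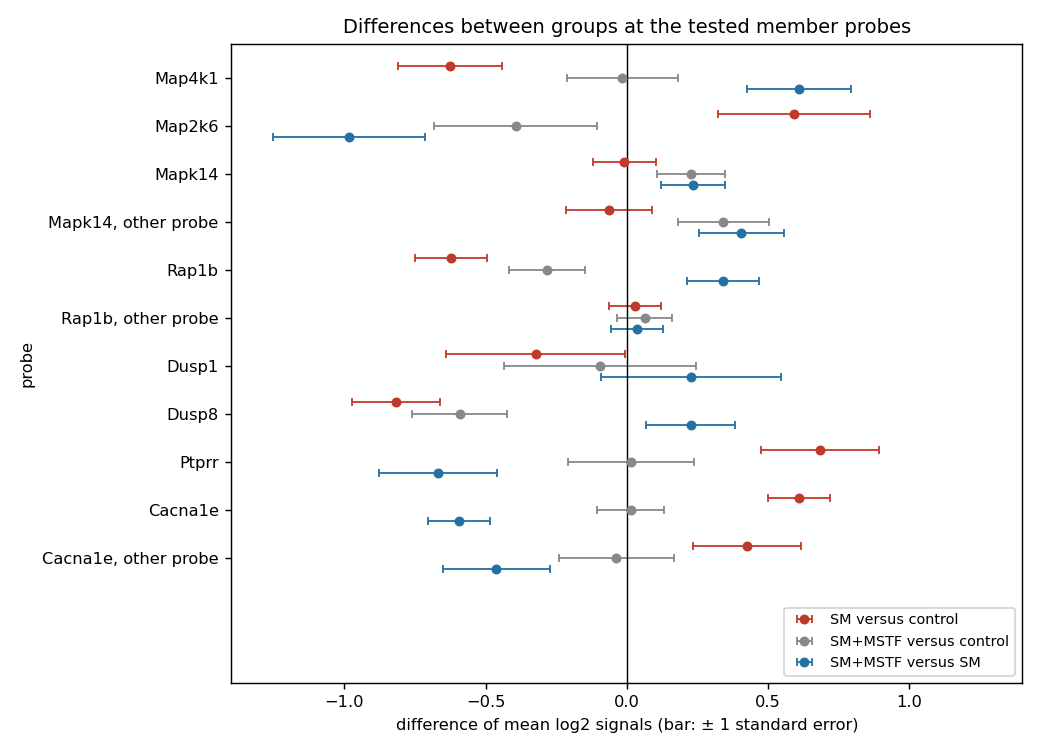
Difference of mean log2 signals (horizontal axis) at the 11 tested member probes, with bars of ± 1 standard error from limma, for SM against control (red), SM+MSTF against control (grey) and SM+MSTF against SM (blue). For Map4k1, Ptprr and Cacna1e the red and blue points lie on opposite sides of 0 and the grey point lies within 0.02 of it, whereas the grey point of Dusp8 is at -0.59.

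Map4k1 encodes a MAP4 kinase of blood cells, known as HPK1, that works upstream of JNK and downstream of antigen receptors. Its log2 signal was 6.57, 6.95 and 6.62 in the 3 controls, 5.90, 5.90, 5.94 and 6.62 in the 4 SM livers, and 6.68, 6.79 and 6.63 in the 3 SM+MSTF livers. SM 1 to 3 lay below all other arrays, while SM 4 lay among the controls, so SM and control overlapped and SM and SM+MSTF did not. The difference from control was -0.63 ± 0.18 (SE) in SM, or 1.54-fold lower, and -0.02 ± 0.20 in SM+MSTF. Without SM 4, the SM difference was -0.80. With the normexp background correction it was -0.34.

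Pan-leukocyte, natural killer cell and macrophage markers had lower means in SM, as Map4k1 did, whereas the 3 tested neutrophil markers had higher ones. All 4 of the pan-leukocyte markers with a probe, Ptprc, Coro1a, Laptm5 and Itgb2, had a lower mean in SM than in control. The differences ran from -0.37 to -0.15 on the log2 scale. An unadjusted limma p under 0.05 was reached by 3767 of the 22991 tested probes and by 1 of these 4 markers, and 0 of the 4 were called. Their summed linear signal ranged from 8565 to 10230 in controls, from 6283 to 10500 in SM and from 9503 to 9836 in SM+MSTF. Their mean log2 signal was 9.79, 9.45, 9.94 and 10.34 in SM 1 to 4, so SM 4, the SM array with the highest Map4k1, was also the one with the highest leukocyte markers. The summed T cell markers ranged from 726 to 809 in controls, 462 to 922 in SM and 569 to 937 in SM+MSTF, and the natural killer cell markers from 1593 to 1717, 926 to 2593 and 1315 to 3034. Of 5 tested T cell markers 4 had a lower mean in SM than in control, as had all 4 tested natural killer cell markers, while all 3 tested neutrophil markers had a higher one, with a median of 0.75. The summed neutrophil markers ran from 321 to 572 in controls and from 380 to 912 in SM+MSTF. In SM 1 to 4 the sums were 1654, 368, 378 and 978, so SM 2 and SM 3 lay within the controls. S100a8 and S100a9 had limma adjusted p of 0.618 and 0.665 in SM against control. Of 2 tested B cell markers, Cd79b differed by -2.18 (limma adjusted p = 0.125), above background in 3 of 3 controls and 2 of 4 SM arrays, and Cd22 by 0.22 (adjusted p = 0.541). Cd79b entered the test only through control, where it was high, so its difference is a description. All 7 macrophage markers with a probe had a lower mean in SM than in control, with 0 called and a summed signal of 51800 to 75190 in controls, 34790 to 62440 in SM and 53730 to 70330 in SM+MSTF. Cd5, Ncr1 and the neutrophil markers Elane, Camp, Mmp8 and Csf3r were not well above background on any array. Klrd1 differed by -1.22 on the log2 scale between SM and control (limma adjusted p = 0.0277) and by 1.15 between SM+MSTF and SM (limma adjusted p = 0.0455). These Klrd1 values are a description, since its probe entered the test only through the groups where it was high. The part of these cells in the Map4k1 values was not tested.

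**Figure D3:**
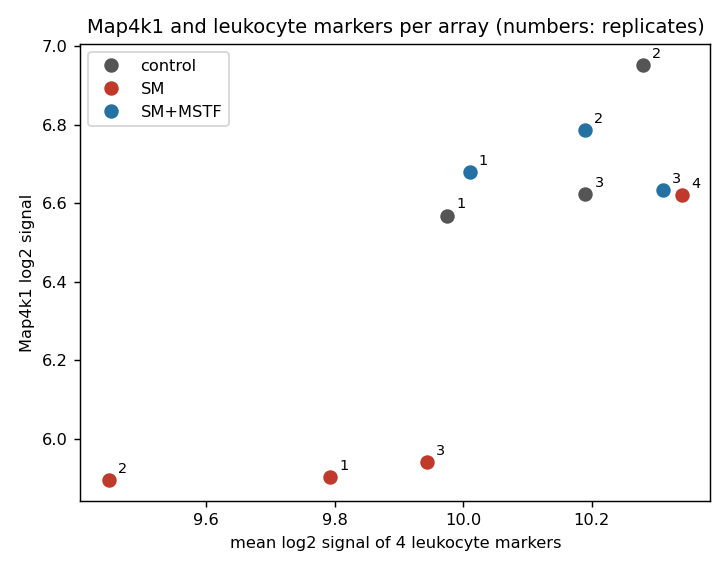
Log2 signal of Map4k1 (vertical axis) against the mean log2 signal of 4 leukocyte markers (horizontal axis) in each of the 10 arrays, numbered by replicate within control (grey), SM (red) and SM+MSTF (blue). SM 1 to 3 lie at the lower left, with Map4k1 between 5.90 and 5.94, and SM 4 lies with the other 6 arrays.

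Map2k6 encodes the MAP2 kinase MKK6, which activates p38. Its log2 signal was 6.92, 6.85 and 6.84 in the controls, 7.59, 7.66, 7.11 and 7.48 in SM, and 6.78, 6.95 and 5.70 in SM+MSTF. The SM arrays lay above all others, and SM+MSTF 3 lay more than 1 log2 unit below the other two of its group, whose values surrounded the controls. The difference was 0.59 ± 0.27 (SE) in SM against control, -0.39 ± 0.29 in SM+MSTF against control and -0.98 ± 0.27 in SM+MSTF against SM. Without SM+MSTF 3 the latter 2 values were -0.01 and -0.60. Within the first slide, where SM+MSTF 3 lay with the controls, the difference was -1.17.

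Mapk14 encodes p38 alpha, the MAP kinase that MKK6 phosphorylates, and was measured by 2 probes. The brighter gave 10.93, 10.90 and 11.06 in the controls, 11.01, 10.72, 10.99 and 11.09 in SM, and 11.18, 11.32 and 11.07 in SM+MSTF. SM and control overlapped, and all 3 SM+MSTF arrays lay above the controls, the nearest by 0.01. The limma difference was -0.01 (95% confidence interval -0.26 to 0.24, adjusted p = 0.981) in SM against control, 0.23 (-0.04 to 0.50, adjusted p = 0.584) in SM+MSTF against control and 0.23 (-0.02 to 0.49, adjusted p = 0.338) in SM+MSTF against SM. The other probe gave 8.34, 8.29 and 8.16 in the controls, 8.58, 7.97, 8.03 and 8.23 in SM, and 8.47, 8.57 and 8.78 in SM+MSTF. It shared the order of the group means with the brighter probe. Its limma differences were -0.06 (adjusted p = 0.880), 0.34 (adjusted p = 0.542) and 0.41 (adjusted p = 0.245) in the same order. The sign of the small SM difference at the brighter probe turned with the scaling and the arrays kept.

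Rap1b encodes a Ras-like GTPase that relays cAMP and integrin signals to the ERK branch. At its brighter probe, the log2 signal was 10.37, 10.49 and 10.47 in the controls, 9.79, 9.67, 9.88 and 9.94 in SM, and 10.07, 9.96 and 10.45 in SM+MSTF. The 4 SM arrays lay below all others, while SM+MSTF 3 lay among the controls. The difference was -0.62 ± 0.13 (SE) in SM against control, or 1.54-fold lower, -0.28 ± 0.14 in SM+MSTF against control and 0.34 ± 0.13 in SM+MSTF against SM. Within the first slide, SM+MSTF 3 differed from the controls by 0.01. The other Rap1b probe did not follow. It gave 9.64 to 9.70 in the controls, 9.56 to 9.81 in SM and 9.64 to 9.83 in SM+MSTF, and its differences were 0.03 ± 0.09 in SM against control, 0.06 ± 0.10 in SM+MSTF against control and 0.03 ± 0.09 in SM+MSTF against SM. All arrays were above background at both probes. The brighter probe carries an older accession named through the study's own table, and the other one an accession of the RefSeq table, so the Rap1b value rests on which of the 2 probes is read.

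Dusp1 encodes MKP-1, an immediate early phosphatase that inactivates p38 and JNK. Its log2 signal was 9.25, 9.60 and 8.95 in the controls, 8.71, 9.28, 8.37 and 9.40 in SM, and 9.03, 9.79 and 8.68 in SM+MSTF. The 3 groups overlapped, each spreading over more than 0.6 log2 units. The limma difference was -0.32 (95% confidence interval -1.04 to 0.39, adjusted p = 0.668) in SM against control, -0.10 (-0.86 to 0.67, adjusted p = 0.946) in SM+MSTF against control and 0.23 (-0.48 to 0.94, adjusted p = 0.747) in SM+MSTF against SM. These intervals include changes of 1.5-fold either way in 1 comparison and 1 way in the other two.

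Dusp8 encodes a phosphatase that acts on JNK and p38. Its log2 signal was 12.43, 12.42 and 11.83 in the controls, 11.37, 11.41, 11.52 and 11.33 in SM, and 11.67, 11.43 and 11.80 in SM+MSTF. All SM and all SM+MSTF arrays lay below all controls, and the 2 treated groups overlapped. The difference was -0.82 ± 0.16 (SE) in SM against control, or 1.76-fold lower, -0.59 ± 0.17 in SM+MSTF against control, or 1.51-fold lower, and 0.23 ± 0.16 in SM+MSTF against SM. Control 3 was the lowest control, and without it the SM difference was -1.01. Within the first slide, SM+MSTF 3 was -0.43 from the controls.

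Ptprr encodes a receptor-type tyrosine phosphatase, best known from neurons, that binds and inactivates ERK and p38. At the tested probe its log2 signal was 5.40, 5.97 and 5.79 in the controls, 6.80, 6.65, 6.04 and 6.12 in SM, and 5.81, 5.57 and 5.83 in SM+MSTF. Every SM array lay above every other array, the nearest pair, SM 3 and control 2, by less than 0.1. The difference was 0.68 ± 0.21 (SE) in SM against control, or 1.61-fold, 0.01 ± 0.22 in SM+MSTF against control and -0.67 ± 0.21 in SM+MSTF against SM. With the normexp background correction, the first and last of these were 0.34 and -0.32. The other Ptprr probe lay between 2.11 and 3.51 in all groups and was not above background on any array.

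Cacna1e encodes the pore subunit of the R-type voltage-gated calcium channel, which is placed in MAPK pathway maps because calcium entry can feed into Ras. At its brightest probe the log2 signal was 5.46, 5.39 and 5.70 in the controls, 6.21, 5.98, 6.06 and 6.26 in SM, and 5.43, 5.59 and 5.58 in SM+MSTF. The SM arrays lay above all other arrays, and the SM+MSTF arrays lay within the range of the controls. The difference was 0.61 ± 0.11 (SE) in SM against control, or 1.53-fold, 0.01 ± 0.12 in SM+MSTF against control and -0.59 ± 0.11 in SM+MSTF against SM. A further probe gave 4.26, 4.64 and 4.65 in the controls, 4.74, 4.65, 5.39 and 4.98 in SM, and 4.27, 4.69 and 4.48 in SM+MSTF. It moved the same way by less, 0.42 ± 0.19 in SM against control and -0.46 ± 0.19 in SM+MSTF against SM, with overlapping groups. It was above background in 1 of 3 controls, 4 of 4 SM arrays and 0 of 3 SM+MSTF arrays, which bounds the difference between SM+MSTF and SM at at least 1.32-fold. This probe thus entered the test only through SM, where it was high, and its direction is given as a description. The lowest log2 signal that counted as above background differed between arrays, 4.16 to 4.82 in controls, 3.78 to 4.17 in SM and 4.09 to 4.57 in SM+MSTF. SM+MSTF 2 at 4.69 thus counted as below background where SM 2 at 4.65 counted as above, and such tallies also carry the floors of the arrays. The remaining 2 probes lay near 2 in all groups and were not above background on any array.

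Cacna1e and Ptprr are dim in liver. Both lay among the 5748 tested probes of lowest mean signal, where the median difference was 0.05 in SM against control and -0.04 in SM+MSTF against SM, compared with 0.03 and -0.03 over the 5748 brightest probes, which included Mapk14, Dusp8 and Rap1b. With normexp, which lifts dim signals by an added offset, the Cacna1e difference was 0.22 in SM against control and -0.24 in SM+MSTF against SM. Of the neuron and endocrine cell markers, 6 of 8 had a probe, Snap25, Syt1 and Stmn2 were not above background on any array, and their summed linear signal was 99.4 to 103 in controls, 104 to 138 in SM and 90.7 to 114 in SM+MSTF. Of the 2 tested, Tubb3 was 0.45 higher and Syn1 0.11 higher in SM than in control on the log2 scale, with limma adjusted p of 0.175 and 0.798. Tubb3 was above background in 2 of 3 controls, 4 of 4 SM arrays and 2 of 3 SM+MSTF arrays. It entered the test only through SM, where it was high, so its difference is a description. Chga, which was not tested, was above background in SM 1, SM 3 and SM 4, between 4.22 and 4.67, and in no other array, where it ran from 2.83 to 3.87. The part of such cells, and of signal near background, in the Cacna1e and Ptprr values was not tested.

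**Figure D4:**
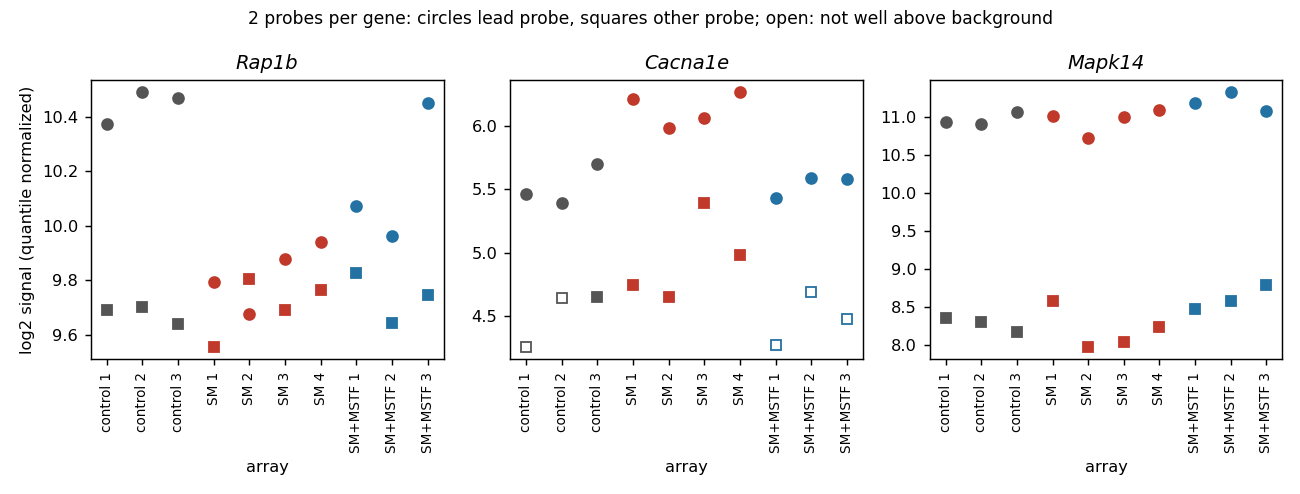
Log2 signal (vertical axis) in each array at the 2 tested probes of Rap1b, Cacna1e and Mapk14, with circles for the lead probe, squares for the other probe and open symbols where the probe was not well above background. The circles of Rap1b drop in SM while its squares stay between 9.56 and 9.83, and the squares of Cacna1e are filled in 1 of 3 controls, all 4 SM arrays and 0 of 3 SM+MSTF arrays.

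The 250 bases before the RefSeq start sites of the members called in SM against control, and of Dusp1, are shown because these are the genes whose levels the comparisons turn on or, for Dusp1, the phosphatase gene with the same element as Rap1b. They are read from RefSeq on the GRCr8 build, 5′ to 3′ on the gene's strand, and are no measurement of this study. Rap1b lies at chr7:55342218-55342467 on the minus strand, Dusp1 at chr10:17184603-17184852 on the plus strand, Dusp8 at chr1:206612442-206612691 on the minus strand, and Cacna1e at chr13:69444811-69445060 on the minus strand. Capitals mark every match, on either strand, to 5 motifs: the cAMP response element TGACGTCA, the AP-1 site TGACTCA, the GC box GGGCGG, the CCAAT box CCAAT and the TATA box TATAAA.
Rap1b: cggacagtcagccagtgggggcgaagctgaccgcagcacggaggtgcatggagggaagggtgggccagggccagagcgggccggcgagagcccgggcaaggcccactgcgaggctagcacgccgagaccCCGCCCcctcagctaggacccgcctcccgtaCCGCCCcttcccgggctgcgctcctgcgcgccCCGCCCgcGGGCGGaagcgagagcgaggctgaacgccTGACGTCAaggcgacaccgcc
Dusp1: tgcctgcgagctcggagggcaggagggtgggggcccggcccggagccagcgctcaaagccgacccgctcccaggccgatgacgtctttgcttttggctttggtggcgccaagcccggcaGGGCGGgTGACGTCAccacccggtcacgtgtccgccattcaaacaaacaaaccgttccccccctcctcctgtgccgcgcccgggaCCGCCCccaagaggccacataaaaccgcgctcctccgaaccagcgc
Dusp8: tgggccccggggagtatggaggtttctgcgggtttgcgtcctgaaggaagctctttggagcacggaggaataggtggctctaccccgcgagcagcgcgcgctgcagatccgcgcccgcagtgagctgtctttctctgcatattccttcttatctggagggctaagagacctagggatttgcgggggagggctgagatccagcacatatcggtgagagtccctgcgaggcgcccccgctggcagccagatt
Cacna1e: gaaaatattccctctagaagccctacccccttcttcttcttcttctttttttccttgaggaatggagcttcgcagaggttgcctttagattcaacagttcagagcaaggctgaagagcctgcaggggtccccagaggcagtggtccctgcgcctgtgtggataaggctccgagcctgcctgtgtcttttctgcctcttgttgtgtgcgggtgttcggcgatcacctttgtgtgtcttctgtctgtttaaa
The cAMP response element was found in Rap1b, 21 bases before the start, and in Dusp1, 124 bases before it, and in 1.59% of 33469 such windows of all genes. Rap1b also held 4 GC boxes and Dusp1 held 2, a motif of 30.5% of windows. Dusp8, Cacna1e, Map4k1 and Ptprr held none of the 5 motifs. CCAAT was found in 34.0% of windows, TATAAA in 12.9% and TGACTCA in 4.05%. None of the 10 member windows held the AP-1 site or the TATA box. A match is a description of these letters only.

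The remaining genes of the pathway were counted from 10 lists by role, 150 genes in all, of which 121 had a probe and 90 were tested. Called by limma were 0 of 90 in SM against control, 0 in SM+MSTF against control and 1, lower, in SM+MSTF against SM, or 1.11%. Unadjusted limma p was under 0.05 for 9, 7 and 10 of the 90, beside 3767, 2193 and 3661 of the 22991 tested probes. The methods' t-test with the fold minimum picked 0, 1 and 2 before adjustment, beside 1043, 168 and 686 of all probes. The median difference was 0.02, 0.03 and 0.00 on the log2 scale, near those of all probes. The lists were not picked for how their genes moved, though they were drawn up with earlier results of these data known.

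The 1 called gene was Cacna1i, a T-type calcium channel subunit. Its log2 signal was 4.12, 4.32 and 4.06 in the controls, 4.44, 4.49, 4.79 and 4.77 in SM, and 3.98, 3.72 and 4.04 in SM+MSTF. It was above background in 4 of 4 SM arrays and in 0 of 3 arrays of each other group, so the SM signal was at least 1.19-fold higher than in SM+MSTF, with a limma difference of -0.71 ± 0.13 (SE, adjusted p = 0.0339). It entered the test only through the SM group, where it was high, and with no filter on dim probes its adjusted p was 0.0552. The excess of SM above control was at least 1.17-fold, which did not pass the test (adjusted p = 0.110). Like Cacna1e it is a dim channel probe whose SM arrays lay above all others. Its call was also lost with normexp, with only the groups compared in the fit, with the replicate block, with slide as a random block, and without control 1, control 3, SM 1, SM 3, SM 4, SM+MSTF 1 or SM+MSTF 2, and with each array left out in turn the difference ranged from -0.77 to -0.61. Of the 25 channel subunits listed, 23 had a probe and 6 were tested. Their SM against control differences ran from -0.16 for Cacng3 to a measured 0.56 ± 1.01 (SE, limma adjusted p = 0.834) for Cacna1g, whose groups overlapped. Cacna1g was above background in 0 of 3 controls, 4 of 4 SM arrays and 1 of 3 SM+MSTF arrays, so it entered the test only through SM. The bound on its means, at least 1.19-fold higher in SM, did not pass the test.

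In the upper tiers, 18 MAP4 and MAP3 kinases were tested, and in SM against control they ran from -0.47 for Map3k6 to 0.51 for Taok1, with 11 of 18 above 0 and a median of 0.11. Without SM 3, the Taok1 value was 0.16. The 6 MAP2 kinases other than Map2k6 ran from -0.18 for Map2k1, which activates ERK, to 0.38 for Map2k7, which activates JNK. Map2k7 is dim and entered the test only through SM, and its value ran from 0.24 to 0.63 with an array left out. Among 7 other MAP kinases, Mapk12, or p38 gamma, was at the top with 0.28 and Nlk at the bottom with -0.53 (limma adjusted p = 0.0621). Nlk, a kinase of Wnt and stress signalling, gave 7.96, 8.04 and 8.03 in the controls, 7.29, 7.45, 7.74 and 7.42 in SM, and 7.58, 7.70 and 7.94 in SM+MSTF. All 4 SM arrays lay below the controls, yet the difference, 1.45-fold, missed both limits of the call.

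Among 6 other MAPK phosphatases, 5 had a lower mean in SM than in control, with a median of -0.17, and 0 were called. The lowest was Dusp4, which acts on ERK, at -0.86 ± 0.34 (SE, limma adjusted p = 0.250). Dusp4 gave 6.52, 5.57 and 5.22 in the controls, 4.79, 4.78, 5.02 and 5.06 in SM, and 5.53, 4.31 and 5.38 in SM+MSTF. The highest was Ppm1a, a serine and threonine phosphatase, at 0.18. Control 1 set much of the Dusp4 value, which was -0.48 without it.

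Among the 18 tested Ras and Rap GTPases and their regulators, Rapgef5, an exchange factor that activates Rap, was lowest in SM against control at -0.56 (limma adjusted p = 0.189) and Rras2 highest at 0.42 (adjusted p = 0.118). Rapgef5 gave 6.81, 6.51 and 7.06 in the controls, 6.32, 6.28, 6.27 and 6.08 in SM, and 6.65, 7.24 and 7.47 in SM+MSTF. The SM arrays lay below all others, and SM+MSTF exceeded SM by 0.89 ± 0.20 (SE, limma adjusted p = 0.0665). It thus shared the order of its groups with the brighter Rap1b probe in SM against control, but its SM+MSTF mean was above control where that of Rap1b was below.

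Downstream, 7 MAPK-activated kinases were tested, of which Mknk1 was highest in SM against control at 0.48. Mknk1 entered the test only through SM, where it was high, and without SM 2 its difference was 0.04. The lowest by measured signal was Mapkapk3, which was below background in both groups and so gives no difference. Mapkapk3, a target of p38, was above background in all 3 SM+MSTF arrays, at 4.90, 5.24 and 5.17, and in no other array. It thus entered the test only through SM+MSTF, where it was high, and its values are a description. SM+MSTF was at least 2.02-fold above SM, which missed the threshold (limma adjusted p = 0.0976). The 6 scaffolds ran from -0.45 for Arrb1 to 0.34 for Mapk8ip1, the JNK scaffold JIP1. The 7 feedback targets of ERK ran from -0.40 for Ier3 to 0.34 for Spred1, an inhibitor of the Ras to ERK step. The 9 activators of the stress kinases ran from -0.42 for Gadd45b to 0.36 for Traf6. Without control 2, the Gadd45b value was -0.02. In these 4 lists 0 genes were called by limma in any comparison. Unadjusted limma p was under 0.05 for 3 of 29 genes in SM against control, beside 3767 of the 22991 tested probes.

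**Figure D5:**
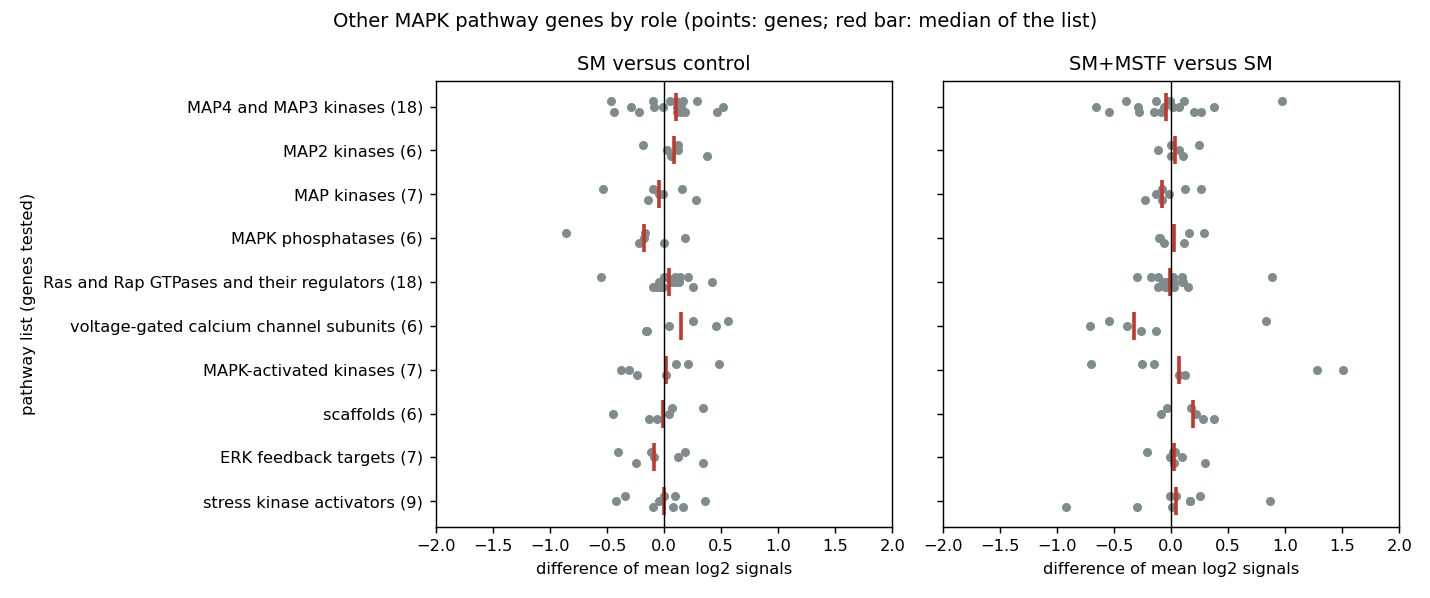
Difference of mean log2 signals (horizontal axes) for each tested gene of 10 lists of the pathway, members left out, in SM against control and in SM+MSTF against SM. Grey points are genes, the red bar is the median of a list and the number in brackets is the genes tested. The medians in SM against control lie between -0.17 for the phosphatases and 0.14 for the channel subunits.

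For 4 members, the 3 genes with the most similar pattern over the 10 arrays were picked by Pearson correlation among 9318 genes. For Map4k1 these were Fmnl1 (r = 0.947), Cwc25 (0.936) and Icam2 (0.922). For Cacna1e they were Atcay (0.976), Alppl2 (0.966) and Slc14a1 (0.966). For Dusp8 they were C3h11orf96 (0.977), Msl3l2 (0.975) and Calca (0.954), and for the brighter Rap1b probe RGD1566264 (0.973), Rchy1 (0.970) and Nudt9 (0.968). These are the highest of many values over arrays that share slides and groups, and are given as a description.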

How the data were processed

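RNA of 10 rat livers had been hybridised by the authors to one-colour Agilent whole rat genome arrays, 1 per rat, read with Agilent Feature Extraction 10.7 and quantile normalized in GeneSpring, and the log2 values of that step were deposited beside the scanner files. From the deposited spot intensity (the processed, background-corrected signal), control spots and spots flagged as non-uniform were left out here, the rest was quantile normalized, and log2 values were averaged over the spots of a probe. A probe was well above background where at least 0.5 of its spots were, and the test covered the 22991 of 41012 probes that were so throughout 1 or more groups. No spot was saturated.

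Groups were taken from the labels. limma 3.58.1 in R 4.3.3 was fitted to all 10 arrays (3 control, 4 SM, 3 SM+MSTF), and a probe was called at a Benjamini-Hochberg adjusted p under 0.05 and at least 1.5-fold. Intervals are 95% confidence intervals, and their precision is limited by how many arrays there are. The fitting code was tested on simulated data. Probes were named by accession through the RefSeq gene table (17512 probes) or the study's table (144), and 23356 stayed unnamed. For the members selected on SM against control, the lead probe is the one which that selection had picked, and it was also their brightest tested one. Their lead probes thus carry that selection. For Rap1b the lead probe differed by -0.62 in SM against control and the other probe by 0.03. For Mapk14 and Dusp1 the lead probe is the brightest tested one, and for genes outside the members the brightest probe was read. The members, the pathway lists and the marker lists were chosen with earlier results of these data known, and the sums of 1 marker list are not reported here. Genes outside the members are named where called, where they hold the largest or smallest SM versus control difference of their list, or as the 3 highest correlations. The methods' t-test was run in its form for unequal variances, before and after adjustment. Columns of the study's tables with its own fold changes and p-values were not used. A bound, at least N-fold, sets the brighter group's mean against the dimmer group's mean of, per array, the higher of the lowest signal well above background and the probe's own. Replicate numbers were shared between groups without pairing the rats.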

Additional observations from a re-analysis of the deposited data

Results flagged for a closer look

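Map4k1 in the SM group stood out for 1 array. The gap between SM 4 and the next highest SM array took up 0.938 of the range of the 4 SM arrays, above Dixon's critical value for 4 values. Chance gives such a gap in about 1 in 20 groups, and this was the 1 found among the 12 probes looked at, all in the SM group, the only one with 4 arrays. Without SM 4, the SM against control difference of Map4k1 was -0.80 on the log2 scale in place of -0.63, and that of SM+MSTF against SM was 0.79 in place of 0.61.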

How the results depend on the processing

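For the members called in SM against control, 3 in the fit reported, the count was 1 with the normexp background correction, 1 with no filter on dim probes, 0 with slide as a random block, 6 by the methods' t-test unadjusted and 0 after its adjustment. Leaving out 1 array gave 0 to 3. In SM+MSTF against control the count of 0 became 1 with slide as a fixed block, which compares SM+MSTF 3 with the controls, and stayed 0 with each array left out. In SM+MSTF against SM the count of 1 became 0 with normexp, with only the groups compared in the fit, with slide as a random block and by the adjusted t-test, 3 by the unadjusted one, and 0 to 1 with an array left out. For the pathway genes, SM against control gave 1 in place of 0 with no filter, and SM+MSTF against control gave 1 by the unadjusted t-test. In SM+MSTF against SM the 1 call became 0 with normexp, with probes above background on all arrays, with only the groups compared, with slide as a random block and by the adjusted t-test, 2 by the unadjusted one, and 0 to 1 with an array left out. Over all tested probes, the unadjusted t-test picked 1043 in SM against control, 168 in SM+MSTF against control and 686 in SM+MSTF against SM. With slide as a fixed block, 291 of all probes were called in SM+MSTF against control. The causes of these shifts were not tested.

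With the replicate number as a block (replicate block), the members called were 0 in SM against control and 0 in SM+MSTF against SM, and the pathway genes called in SM+MSTF against SM were 0. The 9 pairs of same-numbered arrays had correlations of deviations from -0.0993 to 0.169, with 3 over 0.1, so the arrays share only a number.

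Signs turned for small differences. Mapk14 in SM against control was 0.00134 with 75th percentile scaling, 0.0409 without control 3 and, over all arrays left out in turn, -0.0547 to 0.0694 (without SM 2). Dusp1 in SM+MSTF against control was 0.0705 without control 2 and ran from -0.409 to 0.15 (without SM+MSTF 3), and in SM+MSTF against SM it ran from -0.086 (without SM+MSTF 2) to 0.473. Rap1b in SM against control was 0.0278 at its other probe. In SM against control, Cacng3 was 0.000483 without control 2 and ran from -0.443 to 0.0200 (without SM 2), and Mapkapk3, below background in both groups, ran from -0.621 to 0.00654 (without SM 3).

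Over all probes, 553 were called in SM against control, 217 with normexp, and 61 to 715 with an array left out. Of these calls 40.5% were higher in the fit reported, 46.5% with 75th percentile scaling, 40.8% with the deposited log2 values and 17.5% with normexp. In SM+MSTF against control, 0 became 248 without SM+MSTF 3. Among the members, normexp took the SM against control difference from 0.61 to 0.22 for Cacna1e, from 0.68 to 0.34 for Ptprr and from -0.63 to -0.34 for Map4k1. Cacna1e and Ptprr lay among the dimmest tested probes and Map4k1 did not. The lead probes of these members were above background on every array.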
